A study of Mus musculus with 6 samples.

Results

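The oligoadenylate synthetase (OAS) family and the cytoplasmic RNA sensors were followed in Brd9 KO and control marrow cells through 9 genes, Oasl1, Oasl2, Oas1a, Oas1b, Oas2, Oas3, Ddx58, Ifih1 and Dhx58. These genes were chosen by symbol, and all 9 were found among the 24411 genes of the gene tables. Brd9 encodes a bromodomain subunit of the non-canonical BAF chromatin remodelling complex. The Brd9 KO group (3 libraries) carried CD45.2(+) Mx1-Cre Brd9fl/fl cells and the control group (3 libraries) CD45.2(+) Brd9fl/fl cells, all on the C57BL/6 strain. Both groups received 3 injections of pIpC at 20 mg/kg, given 4 weeks after birth per the series design, and cells were taken 8 weeks after pIpC. The study's text differs on age, with mice 4 months old at that sampling. The labels name lineage-negative cells of the long bones and treatment of transplant recipients, whereas primary mice and a sort for Lin-c-Kit+ cells are given in the study's methods. Features of the model touch these genes directly. The agent pIpC is a double-stranded RNA mimic, given to both groups, and the Mx1 promoter that drives Cre is itself induced by interferon. The controls held floxed alleles without Cre, so Cre and loss of Brd9 cannot be told apart.

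As background, cells read foreign RNA in the cytoplasm along 2 routes. In the first, OAS enzymes bind double-stranded RNA and make 2-5A, a short oligoadenylate that sets off the decay of RNA. In the second, the helicases RIG-I (gene Ddx58) and MDA5 (Ifih1) bind viral or self RNA and signal through Mavs to induce interferons, with LGP2 (Dhx58) as a modulator that has no signalling domain of its own. Nearly all these genes are themselves induced by interferon through ISGF3, the transcription factor complex of the type I interferon response, which binds interferon-stimulated response elements (ISRE). In mouse, Oasl1 lacks the synthetase activity and restrains translation of Irf7, the factor that amplifies interferon production.

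The libraries held between 21151031 and 28500168 expected counts, and the 9 genes together took 2214 to 2968 of them in Brd9 KO libraries and 2632 to 3410 in control libraries. Levels below are CPM, counts as a share of the library's total after scaling by TMM, a between-library normalization. A gene was called at an adjusted p under 0.1 in edgeR's quasi-likelihood test over 12953 genes. Brd9 itself stood at 13.5 to 21.0 CPM in Brd9 KO and 45.9 to 52.1 CPM in control. Lineage marker levels differed between the groups. The summed level of 7 progenitor genes (Kit, Cd34, Flt3, Ly6a, Gata2, Mpo and Elane) was 7955 to 8944 CPM in Brd9 KO and 13399 to 15502 CPM in control, and all 7 were detected. That sum was mostly Mpo and Elane, granule enzymes of myeloid progenitors, which were called lower, Elane no longer when any library other than Brd9 KO replicate 3 was left out. The other 5 summed to 1155 to 1269 CPM in Brd9 KO and 780 to 918 CPM in control, with Gata2 called higher (1.27) and Kit, Cd34, Flt3 and Ly6a not called. Brd9 KO replicate 3 stood apart, with 7922 CPM over 11 neutrophil genes against 1216 and 1372 CPM in the other KO libraries and 1753 to 3242 CPM in control. In such bulk samples, fewer cells of a type and less RNA per cell cannot be told apart. Brd9 KO replicate 3 was left out in turn, as was every other library. Calls over all genes tested numbered 1999 with every library kept. They numbered 4150 without Brd9 KO replicate 3 and 641 to 1010 without any other library, so the list counts below shift against that background.

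Of the 9 genes, Oasl1 and Oas1a were lower and Ddx58 was higher in Brd9 KO, and 6 were not called. Among all genes tested, 9.19% were called higher and 6.25% lower. The median log2 fold change of the 9 genes was -0.27, beside 0.02 over all genes tested. All 9 passed the filter on low counts, with at least 37 expected counts in every library. The 3 KO libraries lay wholly below the 3 control libraries for 4 genes (Oasl1, Oasl2, Oas1a and Dhx58) and wholly above for 1 (Ddx58), where 16.3% and 17.2% of all genes tested did so. The called members thus moved in both directions, and only Oasl1 changed over 2-fold.

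**Figure D1:**
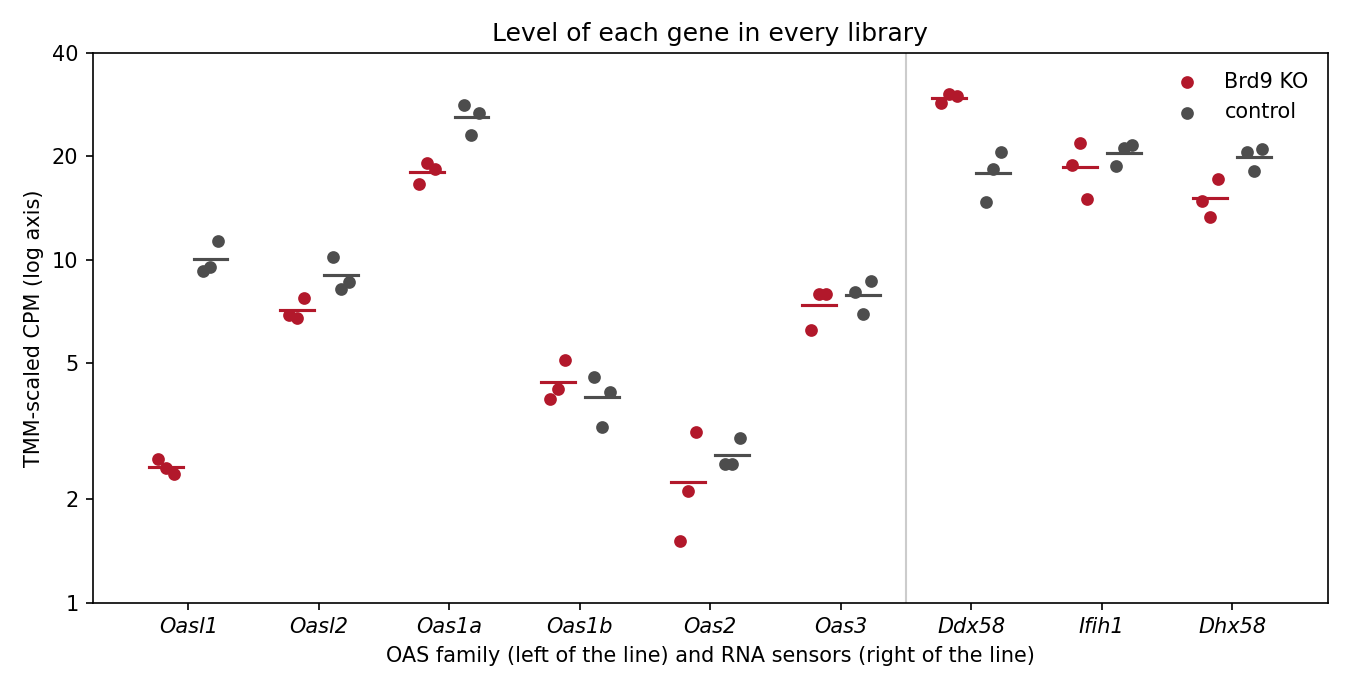
TMM-scaled CPM on a log axis (vertical) of the 9 genes (horizontal) in each library, Brd9 KO in red left of control in grey, with points for single libraries and lines for the means of 3 libraries. The Oasl1 points of Brd9 KO sit between 2.36 and 2.62 CPM, below control at 9.27 to 11.3 CPM, while the Ddx58 points of Brd9 KO sit at 28.6 to 30.3 CPM, above control at 14.8 to 20.5 CPM.

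Oasl1, the OAS-like gene whose product restrains Irf7, showed the largest change of the 9 genes. It stood at 2.62, 2.47 and 2.36 CPM in Brd9 KO, against 9.27, 9.49 and 11.3 CPM in control. The KO libraries were tight in CPM and did not approach control. In TPM they spread more, from 1.47 to 2.07, against 5.16 to 7.43 in control. The KO libraries rested on 64, 68 and 49 expected counts, against 245, 225 and 307 in control. The mean was 2.49 ± 0.128 CPM in Brd9 KO and 10.02 ± 1.11 CPM in control (SD, n = 3 each). The KO mean was 24.8% of the control mean, and the fitted log2 fold change was -2.01 ± 0.18 (SE; edgeR adjusted p = 0.00192). Of the 12953 genes tested, 37 had a larger fall and 22 a smaller p. The call held with each library left out (log2 fold change -2.06 to -1.92, edgeR adjusted p 0.00122 to 0.0197), including without Brd9 KO replicate 3. Oasl1 lies on chr5:114923240-114937915 (mm10, plus strand, 7 exons), and Gm13822 is annotated on the opposite strand there. Unstranded libraries are given in the labels but a stranded kit in the methods, and without strand the reads of overlapping antisense genes cannot be told apart from those of Oasl1.

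Oasl2, the neighbouring OAS-like gene, which in mouse keeps the synthetase activity, differed far less between the groups. It stood at 6.91, 6.77 and 7.72 CPM in Brd9 KO, against 10.18, 8.18 and 8.61 CPM in control. The groups did not overlap, but the gap was small and the gene was not called (log2 fold change -0.34 ± 0.16, edgeR adjusted p = 0.225). Oasl2 ends upstream of Oasl1 on the same strand (chr5:114896936-114912234, 6 exons). Within each library, the TPM of Oasl1 over that of Oasl2 was 0.576, 0.559 and 0.467 in Brd9 KO and 1.39, 1.77 and 2.003 in control. Oasl1 was thus the less abundant of the pair in every KO library and the more abundant in every control library. The difference of the mean log2 ratios was -1.68, and an exact two-sided permutation test gave p = 0.1, the smallest that 3 libraries against 3 can give (adjusted p = 0.1 over the 4 ratios compared).

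Of the enzymes proper, Oas1a was lower in Brd9 KO. Oas1a is the main OAS1 enzyme of the mouse, and it was the most abundant of the 9 genes per length (chr5:120896256-120907521, minus strand, 7 exons). It stood at 16.6, 19.1 and 18.3 CPM in Brd9 KO, against 28.2, 23.0 and 26.8 CPM in control. All KO libraries lay below all control libraries, at 69.2% of the control mean (log2 fold change -0.53 ± 0.12, edgeR adjusted p = 0.0418). This call was less firm than that of Oasl1. It was lost without Brd9 KO replicate 1 (-0.47, edgeR adjusted p = 0.169), Brd9 KO replicate 2 (-0.58, 0.101), control replicate 1 (-0.47, 0.118) or control replicate 3 (-0.51, 0.122), and in TPM the groups overlapped, at 13.01 to 18.16 in Brd9 KO and 17.89 to 20.06 in control.

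Oas1a shares reads with a near-identical neighbour, Oas1g, and its expected counts were not whole, so the split between them is uncertain. Oas1g moved the same way, with 1.19, 0.946 and 0.723 CPM in Brd9 KO against 3.82, 2.40 and 1.58 CPM in control (log2 fold change -1.44 ± 0.38, edgeR adjusted p = 0.0589). That call was lost without Brd9 KO replicate 1 (edgeR adjusted p = 0.13), Brd9 KO replicate 2 (0.16), control replicate 1 (0.159) or control replicate 2 (0.129). With the counts of Oas1a and Oas1g summed as 1 gene, an alternative chosen after seeing the data, the log2 fold change was -0.59 (edgeR adjusted p = 0.0303). Of the other OAS1 copies, Oas1c was not called (0.11 ± 0.21, edgeR adjusted p = 0.753). Oas1e, Oas1f and Oas1h had no count in any library, which allows at most 0.109 to 0.145 CPM per library (3 counts, counting error only), and Oas1d had 3 counts in Brd9 KO replicate 1 and none elsewhere.

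The remaining genes of the OAS family were not called, and their libraries overlapped. Oas1b, a flavivirus resistance gene that the annotation lists as a polymorphic pseudogene, stood at 3.93, 4.18 and 5.11 CPM in Brd9 KO and 4.54, 3.25 and 4.12 CPM in control (log2 fold change 0.15 ± 0.22, edgeR adjusted p = 0.686). Oas2, a larger enzyme with a repeated catalytic unit, stood at 1.51, 2.11 and 3.13 CPM in Brd9 KO and 2.54, 2.53 and 3.02 CPM in control (-0.27 ± 0.30, edgeR adjusted p = 0.587). Its KO libraries spread over 2.07-fold, more than those of any other member, on 37 to 65 expected counts, and Gm43068 is annotated on the opposite strand. Oas3, the largest enzyme of the family, stood at 6.22, 7.93 and 7.91 CPM in Brd9 KO and 8.02, 6.96 and 8.65 CPM in control (-0.10 ± 0.18, edgeR adjusted p = 0.745). The sign of its estimate turned without Brd9 KO replicate 1 (0.011). On chromosome 5 the cluster runs Oas2, Oas3, Oas1e, Oas1c, Oas1b, Oas1f, Oas1h, Oas1g, Oas1a and Oas1d, from 120730333 to 120921652, so that Oas1g and Oas1a, the 2 called copies, lie side by side. Within each library, the TPM of Oas1a over that of Oas1b was 4.09, 4.41 and 3.47 in Brd9 KO and 6.02, 6.86 and 6.29 in control (difference of mean log2 ratios -0.68, exact two-sided permutation p = 0.1, adjusted p = 0.1 over 4 ratios).

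Of the 3 sensors, 1 was called. Ddx58, which encodes RIG-I, the receptor for short double-stranded RNA with a triphosphate end, was higher in Brd9 KO. It stood at 28.6, 30.3 and 29.9 CPM in Brd9 KO, against 14.8, 18.4 and 20.5 CPM in control. In CPM the 3 KO libraries were within 1.06-fold of each other and all lay above control. In TPM they spread more, from 7.57 to 10.26, against 3.33 to 5.48 in control. The mean was 29.6 ± 0.875 CPM in Brd9 KO and 17.9 ± 2.92 CPM in control (SD, n = 3 each), a fitted fold change of 1.66 (log2 fold change 0.73 ± 0.14, edgeR adjusted p = 0.023). The call held with each library left out (0.60 to 0.84, edgeR adjusted p 0.02 to 0.0799). Ddx58 lies on chr4:40203773-40239828 (minus strand, 18 exons).

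Ifih1, which encodes MDA5, the sensor of long double-stranded RNA and of pIpC, was not called. It stood at 18.8, 21.8 and 15.0 CPM in Brd9 KO and 18.8, 21.1 and 21.6 CPM in control, with overlapping groups (log2 fold change -0.14 ± 0.16, edgeR adjusted p = 0.591). Ifih1 lies on chr2:62595798-62646255 (minus strand). Dhx58, which encodes LGP2, had lower values, at 14.9, 13.3 and 17.2 CPM in Brd9 KO against 20.6, 18.1 and 20.9 CPM in control. Its groups did not overlap, but it was not called (-0.39 ± 0.14, edgeR adjusted p = 0.122). Without Brd9 KO replicate 3, Dhx58 was called lower (-0.50, edgeR adjusted p = 0.0443), as it was by DESeq2 over all 6 libraries (-0.40, adjusted p = 0.0761). Dhx58 lies on chr11:100694884-100704271 (minus strand, 13 exons), and Dhx58os is annotated on the opposite strand there, so that, if the libraries were unstranded, reads of the overlap cannot be told apart.

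The sensors were also set against each other within each library. The TPM of Ddx58 over that of Ifih1 was 1.71, 1.56 and 2.21 in Brd9 KO and 0.856, 0.977 and 1.07 in control. The TPM of Ddx58 over that of Dhx58 was 0.899, 1.06 and 0.811 in Brd9 KO and 0.335, 0.473 and 0.457 in control. In both ratios all 3 KO libraries exceeded all 3 control libraries, with differences of the mean log2 ratio of 0.90 and 1.14 (exact two-sided permutation p = 0.1 for each, the smallest possible, adjusted p = 0.1 over 4 ratios). Each of the 4 ratios has a called gene on top and uses the same libraries, so the ratios are no separate support for those calls.

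**Figure D2:**
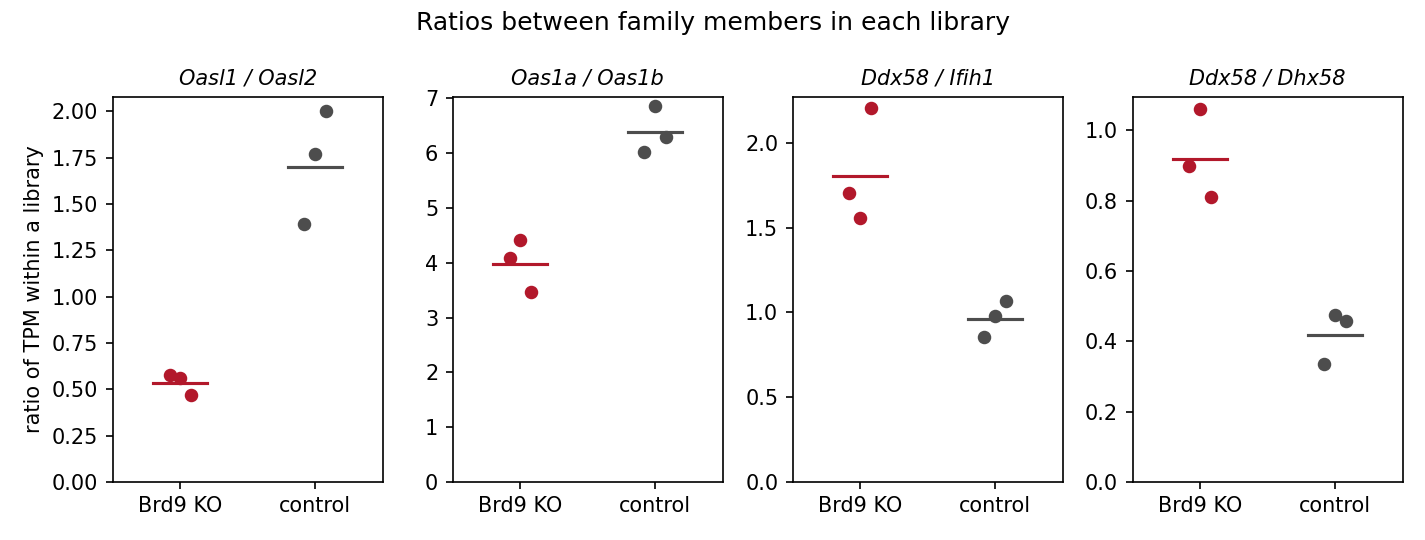
Ratio of the TPM of 2 genes within each library (vertical axis, linear from 0) for 4 pairs of genes (panels), Brd9 KO in red left of control in grey, with points for libraries and lines for geometric means of 3 libraries. Oasl1 over Oasl2 and Oas1a over Oas1b sit lower in Brd9 KO, and both Ddx58 ratios sit higher, with no overlap in any panel.

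The order of the 9 genes by TPM, which is per length, shifted with these changes. In Brd9 KO the mean TPM ran Oas1a 15.2, Dhx58 9.63, Ddx58 8.91, Ifih1 5.08, Oas1b 3.80, Oasl2 3.44, Oas3 2.32, Oasl1 1.85 and Oas2 0.857. Neighbours whose libraries overlapped there were Dhx58 and Ddx58, Ifih1 and Oas1b, Oas1b and Oasl2, and Oas3 and Oasl1. In control the order was Oas1a 18.7, Dhx58 10.95, Oasl1 6.40, Ifih1 4.77, Ddx58 4.66, Oasl2 3.72, Oas1b 2.94, Oas3 2.13 and Oas2 0.90. There Oasl1, Ifih1, Ddx58 and Oasl2 overlapped as neighbours. Oasl1 thus stood at rank 8 in Brd9 KO and rank 3 in control, with Oas1a and Dhx58 on top and Oas2 last in both.

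**Figure D3:**
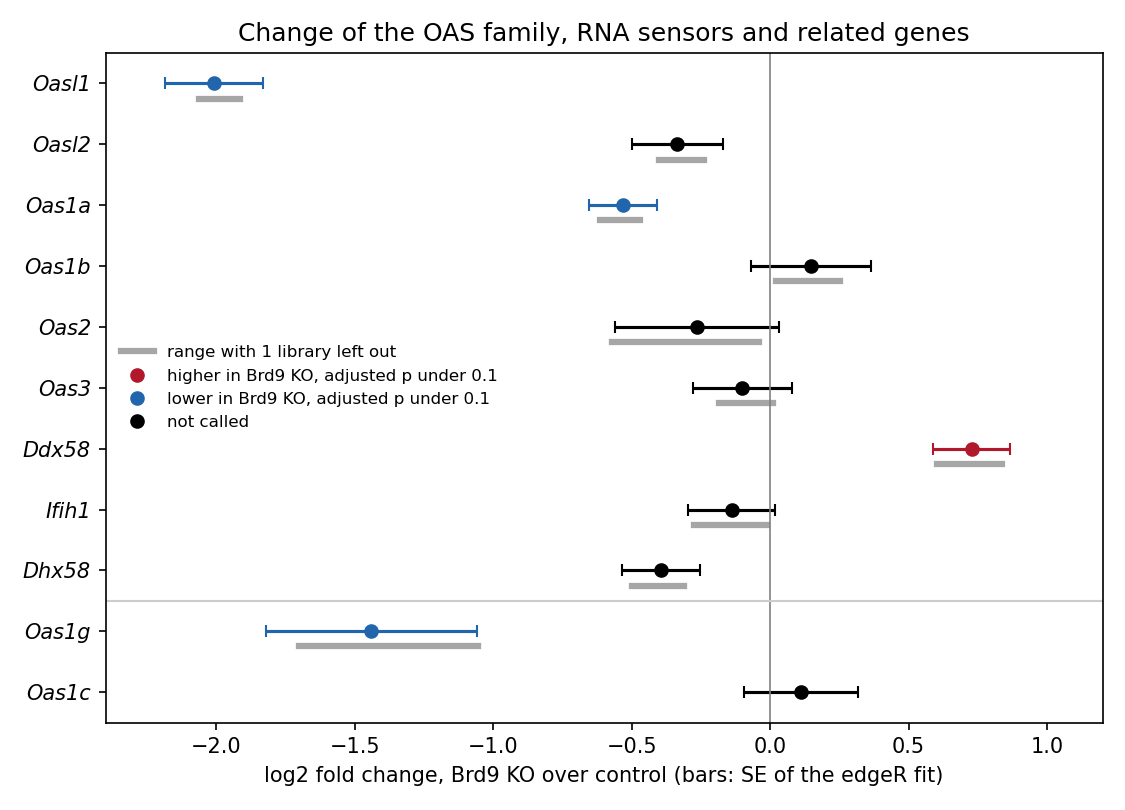
Fitted log2 fold change, Brd9 KO over control, on the horizontal axis, with its SE from the edgeR fit for the 9 genes (above the line) and for Oas1g and Oas1c (below it), coloured by call, with grey bars for the range over fits with 1 library left out (not run for Oas1c). Oasl1 lies at -2.01 and Ddx58 at 0.73, and the grey bars of both stay far from 0.

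Promoter windows from RefSeq (GRCm38.p6, the mm10 build, 250 bases before to 50 after the start) were at hand for 6 of the 9 genes, all but Oas1b, Oas2 and Dhx58. They were searched on both strands for an ISRE core (GAAANNGAAA) and for a GAS core (TTCNNNGAA), the motif of the interferon gamma response. The windows of the 3 called genes are shown 5′ to 3′ on the gene's strand, with the ISRE cores in capitals, because these genes differ both in direction and in motif.
Oasl1 (chr5:114922990-114923289, + strand): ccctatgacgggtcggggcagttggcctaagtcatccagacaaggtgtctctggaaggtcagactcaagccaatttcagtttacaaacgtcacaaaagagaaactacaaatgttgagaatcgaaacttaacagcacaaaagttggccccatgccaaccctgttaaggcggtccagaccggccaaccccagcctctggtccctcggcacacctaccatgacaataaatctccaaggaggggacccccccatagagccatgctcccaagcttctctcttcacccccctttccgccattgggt
Oas1a (chr5:120907476-120907775, - strand): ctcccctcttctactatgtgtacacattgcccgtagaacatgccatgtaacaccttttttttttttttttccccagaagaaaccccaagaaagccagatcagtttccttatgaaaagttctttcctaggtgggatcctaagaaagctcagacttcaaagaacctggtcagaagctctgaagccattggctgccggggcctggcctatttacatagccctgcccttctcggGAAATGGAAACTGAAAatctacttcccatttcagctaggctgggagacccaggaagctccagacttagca
Ddx58 (chr4:40239776-40240075, - strand): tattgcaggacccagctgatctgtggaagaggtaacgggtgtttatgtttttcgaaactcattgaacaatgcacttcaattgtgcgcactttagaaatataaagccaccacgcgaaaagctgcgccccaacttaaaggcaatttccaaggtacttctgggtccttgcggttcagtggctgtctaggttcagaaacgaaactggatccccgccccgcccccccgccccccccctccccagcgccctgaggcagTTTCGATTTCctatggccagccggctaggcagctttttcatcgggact

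An ISRE core was found in 4 of the 6 windows (Oas1a, Oas3, Ddx58 and Ifih1) and in 3.44% of all 32851 windows of this length in the table. The Oas1a window held 2 overlapping matches, from -20 to -11 and from -14 to -5 relative to the start, in the 16-base run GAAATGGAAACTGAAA. Oas1g held the same run, 2 bases nearer to its start, and Oas1c its reverse complement, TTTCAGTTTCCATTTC. Among these 3 copies Oas1a and Oas1g were lower in Brd9 KO and Oas1c was not called. The Ddx58 match, TTTCGATTTC, lay on the opposite strand from 3 to 12 bases after the start. Oas3 held GAAAACGAAA from -75 to -66, and Ifih1 held GAAACAGAAA from 33 to 42 after the start. The windows of Oasl1 and Oasl2 held no match to these letters. A GAS core was found in Oas1a alone of the 6 (from -98 to -90), and in 8.3% of all windows. Of the 4 members with an ISRE core, Oas1a was called lower, Ddx58 higher, and Oas3 and Ifih1 were not called. Oas1b, Oas2 and Dhx58 had no window to search. Only these exact letters and spacings were searched, so near matches, other spacings and sites outside the windows were not seen. A part of such elements in these changes was not tested.

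The list counts below are to be set beside the shares over all genes tested, 9.19% called higher and 6.25% called lower. Of 16 adaptor, regulator and signalling genes of the sensor pathway, 1 was higher, none was lower and 15 were not called by edgeR (median log2 fold change 0.05). At an unadjusted p under 0.05 again 1 was higher and 0 lower, and DESeq2, limma-voom and limma on TPM each also called 1 higher and 0 lower. The gene was Nlrx1, a mitochondrial regulator of this pathway, at 74.2, 63.8 and 60.3 CPM in Brd9 KO against 52.4, 45.8 and 39.2 CPM in control (0.53 ± 0.14, edgeR adjusted p = 0.0545). No gene of the list was called without Brd9 KO replicate 1, Brd9 KO replicate 2, control replicate 2 or control replicate 3, with edgeR adjusted p of 0.125 to 0.187 for Nlrx1, and 3 were called higher without Brd9 KO replicate 3. Mavs, the shared adaptor, was not called (0.36 ± 0.17, edgeR adjusted p = 0.204), nor was Irf7, whose translation Oasl1 restrains, at 14.8, 13.2 and 19.1 CPM in Brd9 KO and 18.8, 14.5 and 22.0 CPM in control (-0.24 ± 0.20, edgeR adjusted p = 0.469). Of 9 other nucleic acid sensors, edgeR called none, with 1 higher and 0 lower at an unadjusted p under 0.05, and DESeq2, limma-voom and limma on TPM called none. Without Brd9 KO replicate 3, edgeR called 2 of them higher. The most abundant by mean TPM in Brd9 KO were the adaptor Sting1 (-0.11 ± 0.10) and the antiviral RNA-binding gene Zc3hav1 (0.34 ± 0.20). In control, Aim2 (23.2 TPM) stood above Zc3hav1 (21.7 TPM). Of the 9 estimates 8 were positive and 1, that of Sting1, was negative (median 0.19).

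No ligand reached the test. All 21 interferon genes listed fell below the filter, and 18 had no count in any library, under the same limit of 0.109 to 0.145 CPM. Of the rest, Ifng had 7, 14 and 10 counts in Brd9 KO and 6, 3 and 11 in control, Ifnz at most 7 counts in any library and Ifnab 1 count in 1 control library. In the receptor and ISGF3 chain, 1 of 10 genes was higher and 1 lower, where 9.19% and 6.25% of all genes tested were. Jak2, a kinase of the interferon gamma receptor and of several cytokine receptors, was higher (log2 fold change 0.65 ± 0.14, edgeR adjusted p = 0.0307). Its call was lost without Brd9 KO replicate 1 (edgeR adjusted p = 0.114), and without Brd9 KO replicate 3 the list had 3 genes higher and 3 lower. Ifngr1, a chain of the interferon gamma receptor, was lower, at 191, 183 and 205 CPM in Brd9 KO against 312, 281 and 304 CPM in control (-0.63 ± 0.10, edgeR adjusted p = 0.0116). Irf9, the DNA-binding partner in ISGF3, was not called (-0.32 ± 0.13).

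Interferon-stimulated effectors other than the 9 genes included 1 higher and 4 lower of 23 tested, with 18 not called and a median log2 fold change of -0.23. Isg20, an exonuclease of single-stranded RNA, was lower, at 28.0, 27.6 and 30.6 CPM in Brd9 KO against 43.3, 38.9 and 43.8 CPM in control (-0.55 ± 0.10, edgeR adjusted p = 0.0215). Ifi44 (-1.01 ± 0.25), Bst2 (tetherin, which holds virions at the cell surface, -0.70 ± 0.22) and the ubiquitin-like modifier Isg15 (-0.84 ± 0.27) were also lower. Isg15 falls outside the rule for naming genes and was added after its values were seen. Samd9l, an antiviral and growth-restraining gene of myeloid cells, was higher, at 42.0, 52.7 and 40.5 CPM in Brd9 KO against 23.3, 31.8 and 30.3 CPM in control (0.66 ± 0.16, edgeR adjusted p = 0.0437). This count rested on single libraries, with 9 called when Brd9 KO replicate 3 was left out and 0 when Brd9 KO replicate 1 was. It was 2 in the absence of control replicate 2, and 1 in that of Brd9 KO replicate 2, control replicate 1 or control replicate 3.

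Of 17 genes of the interferon gamma response, 1 was higher and 4 were lower (median 0.08), where 9.19% and 6.25% of all genes tested were. Gbp3, a guanylate-binding GTPase, was lower, at 26.6, 25.7 and 26.9 CPM in Brd9 KO against 54.3, 54.3 and 51.8 CPM in control (-1.02 ± 0.09, edgeR adjusted p = 0.00192), and this call held with each library left out. Irgm1, an immunity-related GTPase, was lower too (-0.67 ± 0.14, edgeR adjusted p = 0.03, but 0.104 without Brd9 KO replicate 1). The GTPase genes Tgtp1 (-1.19 ± 0.33) and Tgtp2 (-0.62 ± 0.17) were lower, but they are near-identical copies and their split is uncertain. Cd274, the ligand PD-L1, was higher (0.45 ± 0.13) and was added after its values were seen. With 1 library left out, the number called lower was 1 (Brd9 KO replicate 1), 2 (Brd9 KO replicate 2 or either of control replicates 1 and 3), 3 (control replicate 2) or 5 (Brd9 KO replicate 3), and Cd274 kept its call only without Brd9 KO replicate 3.

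**Figure D4:**
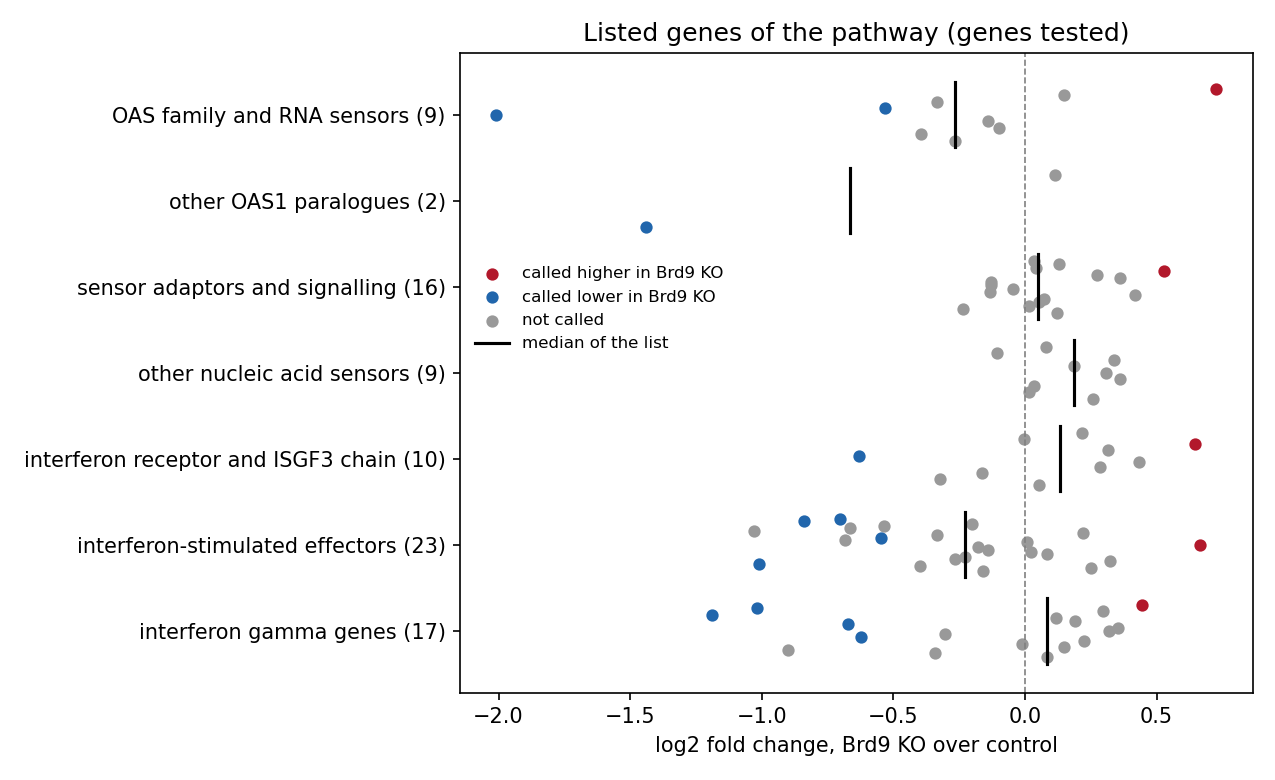
Fitted log2 fold change, Brd9 KO over control, on the horizontal axis for each tested gene of 7 lists (rows, number of genes tested in brackets), red for genes called higher, blue for genes called lower and grey for genes not called, with a black bar at the median of the list. The medians run from -0.66 (2 OAS1 copies) to 0.19 (other nucleic acid sensors), and Oasl1 at -2.01 lies farthest to the left.

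Cell type markers also differed between the groups. The summed level of 8 plasmacytoid dendritic cell genes, a cell type known for high interferon output, was 327 to 377 CPM in Brd9 KO and 481 to 615 CPM in control, and 3 of the 8 were called lower (Spib, Bst2 and Irf8), or 1 when any library other than Brd9 KO replicate 3 was left out. Without Irf8 and Bst2, which stands in the effector list too, the other 6 summed to 73.0 to 82.0 CPM in Brd9 KO and 77.0 to 90.6 CPM in control, which overlapped. Siglech, a defining marker, was not called (-0.32), nor was Pacsin1 (0.84), whose libraries were all higher in Brd9 KO. The 10 genes of stroma and endothelium summed to 239 to 296 CPM in Brd9 KO and 124 to 146 CPM in control, and 10 of 10 were called higher, or 7 to 10 with 1 library left out. Eosinophil genes summed to 3600, 3727 and, in Brd9 KO replicate 3, 7145 CPM in Brd9 KO, and to 1754 to 2316 CPM in control. Of the 6, 5 were called higher, or 4 when any library other than Brd9 KO replicate 3 was left out. Epx, the eosinophil peroxidase, was called lower (-1.54), also with each library left out.

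Monocyte and macrophage genes summed to 880 to 1600 CPM in Brd9 KO and 1403 to 1853 CPM in control. Of the 10, 5 were called higher (4 without control replicate 1 and 3 without control replicate 2). Ccr2 was the 1 gene called lower. Leaving out any library other than Brd9 KO replicate 3 ended that call, and leaving out that library gave 2 of the 10. Without Ly6c2 and Ccr2, the other 8 summed to 218 to 284 CPM in Brd9 KO and 200 to 262 CPM in control. NK and T cell genes summed to 145 to 204 CPM in Brd9 KO and 249 to 319 CPM in control, and that sum was mostly Nkg7, which was called lower. The other 7 summed to 23.8 to 41.9 CPM in Brd9 KO and 13.2 to 18.8 CPM in control, and 3 of them were called higher, or 2 with Brd9 KO replicate 1 left out and 1 with Brd9 KO replicate 2, control replicate 1 or control replicate 2 left out. With Brd9 KO replicate 3 left out, 2 of the 8 were called lower. Erythroid genes summed to 761 to 1512 CPM in Brd9 KO and 986 to 1323 CPM in control, and 2 of 6 were called lower, Klf1 (-0.74), called with each library left out, and Epor (-0.49). Leaving out Brd9 KO replicate 1, Brd9 KO replicate 2 or control replicate 3 left 1 of the 6, and leaving out Brd9 KO replicate 3 gave 4. Of the 11 neutrophil genes Camp was called lower (-3.56), a call that likewise ended when any library other than Brd9 KO replicate 3 was left out, and 7 were called lower with that library left out. Of 5 B cell genes 0 were called by edgeR or DESeq2 (0 at an unadjusted edgeR p under 0.05), and edgeR called 2 lower with Brd9 KO replicate 3 left out. No listed marker was at 0 in all libraries. Their part in the changes of Oasl1, Oas1a and Ddx58 was not tested.

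Across the 6 libraries, the genes whose log2 CPM followed the mean standardized level of the 9 genes best were Ensa (Pearson r = 0.993), Cxcl10 (0.992), Stxbp6 (0.981), Akap7 (0.971) and Rem1 (0.969). Cxcl10, itself an interferon-stimulated chemokine, averaged only 0.746 CPM in Brd9 KO and 1.38 CPM in control, so its r rests on few counts. After each group's mean was subtracted, the closest were Kcnd1 (0.998), Cd83 (0.990), Rbm5 (0.989), Gm5431 (0.988) and Robo4 (0.987), so no gene was on both lists. These are descriptions over 6 libraries that share group and depth, with 18 and 34 of 12944 genes at r of 0.95 or more. None of the 10 genes was called between the groups (edgeR adjusted p 0.15 to 0.933). Among the members, Oasl1 and Oas1a correlated at r = 0.921 over the 6 libraries and at -0.05 after the group means were subtracted. Oas1a and Oas3 correlated at 0.601 and at 0.845 after subtraction. Ddx58 correlated at -0.905 with Oasl1, -0.912 with Oasl2 and -0.900 with Oas1a, and at 0.676, -0.695 and -0.256 after subtraction. The mean level of the 9 genes thus averages genes that ran in opposite directions over the 6 libraries.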

How the data were processed

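RNA-seq of poly(A)-selected RNA was measured in 6 libraries, 3 Brd9 KO and 3 control, grouped by sample titles. Reads were mapped to mm10 by the authors through the STAR and RSEM route of nf-core. The deposited files hold RSEM's expected counts (estimated counts that divide shared reads), the TPM that the authors' RSEM run computed relative to transcript length, and effective lengths. FPKM were not used. Here expected counts were rounded, filtered (filterByExpr), scaled by TMM and compared by the quasi-likelihood test of edgeR 4.0.16 under R 4.3.3 without covariates, with Benjamini-Hochberg adjustment over 12953 genes and calls at adjusted p under 0.1. SE is the log2 fold change over the root of F, and SD is over 3 libraries. Genes were ranked by level only in TPM. Marker sums, and the genes that made up most of a sum, were read in CPM. Summed depth was 21151031 to 28500168 expected counts per library, and intervals or floors cover counting error only. The labels do not say that replicates were separate animals, so p-values may measure technical spread, although the study describes biological triplicates. All pairs of libraries of a group differed by more than sampling noise (chi-square over its degrees of freedom 11.1 to 84.7).

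The members and lists were chosen with earlier results of these data known. The genes named are the 9 members, the other OAS1 copies, Brd9, up to 4 called genes of each pathway list with the smallest p (or the 2 most abundant), the 5 genes most alike over libraries and the 5 most alike within groups, and, outside that rule, Mavs, Irf7, Irf9 and marker genes as context. A few genes that the rule or the lists name are not reported here. The alternatives tried were a robust fit, DESeq2 1.42.0, limma 3.58.1 (voom, log2(TPM + 1), log2(TPM + 0.1)), changed scaling, filter or threshold, effective-length offsets, the replicate block and leaving out each library. Positions and exon counts are from GENCODE M21 (GRCm38) and promoter windows from RefSeq.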

Additional observations from a re-analysis of the deposited data

How the results depend on the processing

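Over 20 alternatives, Oasl1 kept its direction and call (log2 fold change -2.06 to -1.37), as did Ddx58 (0.60 to 0.94), and of the 9 genes 2 to 4 were called. Oas1a was not called by limma on log2(TPM + 1) (-0.29, adjusted p = 0.341) or log2(TPM + 0.1) (-0.31, 0.326), nor with over 1.5-fold also required (-0.53), and ranged from -0.61 to -0.47 with 1 library left out. Dhx58 was called lower by DESeq2 (-0.40) and ranged from -0.50 to -0.31 with 1 library left out. The uncalled estimates of Oas3 and Ifih1 turned positive on log2(TPM + 1) (0.081 and 0.048) and on log2(TPM + 0.1) (0.11 and 0.051), and Oas3 ranged from -0.18 to 0.011 with 1 library left out. The cause was not tested. Calls over all genes numbered 1999, 1015 at an adjusted p under 0.05, 1225 with over 1.5-fold also required, and 641 to 4150 with 1 library left out. The count of interferon-stimulated effectors, 5, was 8 by DESeq2, 2 and 1 by limma on log2(TPM + 1) and log2(TPM + 0.1), and 3 at an adjusted p under 0.05. Library-total scaling moved the median of all genes to 0.10 and the split to 1402 higher and 489 lower, against 1190 and 809 with TMM. Replicate numbers did not pair the libraries (correlation of same-numbered deviations -0.09, 0.47 and 0.02). With the replicate block, Oasl1 stood at -2.002 and Ddx58 at 0.74, 3 members were called and 7 interferon-stimulated effectors, and not every library correlated best with its own number. Over all alternatives the adjusted p was 0.00568 to 0.341 for Oas1a, 0.0443 to 0.557 for Dhx58 and 0.012 to 0.16 for Oas1g. Depth was lowest for Oas2 and Oasl1, with as few as 37 and 49 expected counts in a library.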
